A study of Mus musculus with 18 samples.

Results

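The unperturbed state of alphaTC1 cells was read from 7 control libraries out of the 18 libraries of the series, all polyA-selected, stranded RNA-seq libraries sequenced as paired reads of 75 bases. alphaTC1 is a mouse pancreatic alpha cell line. The control libraries were chosen by their labels alone: every library transduced with the empty vector and with no hairpin was taken, and the 11 knockdown libraries were left out. The series perturbed the splicing factor gene Smndc1 in these cells, so the libraries described here are its baselines. Group EV holds 3 libraries of cells transduced with the empty vector only. Group EV_RIP holds 4 libraries, of a second experiment, from cells that received the same empty vector together with a construct labelled RIP-mCherry, which encodes a red fluorescent protein. Both groups therefore carry the vector, and no untransduced library was used. The groups differ in the reporter construct and in the experiment at once, so the effects of the 2 cannot be told apart. The labels give no time after transduction for the controls, and do not say whether replicates were separate cultures or whether the reporter cells were sorted. The p-values below therefore measure only the spread between these libraries. alphaTC1 descends from a tumour of a transgenic mouse that expressed a viral T antigen in glucagon-producing cells, so it is a proliferating line and not a primary alpha cell.

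Alpha cells are the islet cells that make glucagon, the hormone that raises hepatic glucose output when blood glucose falls. They cut proglucagon with the convertase PC2, encoded by Pcsk2, while intestinal L cells cut the same precursor with PC1/3, encoded by Pcsk1, to give GLP-1. The peptide is stored in granules with chromogranins and is released by calcium-driven exocytosis. The transcription factors Pax6, Foxa2, Isl1, Irx1 and Irx2 are associated with this identity, and Pdx1, Mafa and Nkx6-1 with the insulin-producing beta cell.

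The promoters of the hormone genes with the most RNA here, Gcg and Sct, are shown because homeodomain factors (Isl1, Pax6) and a forkhead factor (Foxa2) are among the islet regulators expressed in these cells. Gcg (ENSMUSG00000000394) lies on the minus strand of chromosome 2 at 62474530-62483650, and Sct (ENSMUSG00000038580) on the minus strand of chromosome 7 at 141278330-141279133, both in GRCm38. The 250 bases before each start were taken from RefSeq (GRCm38.p6), chr2:62483654-62483903 and chr7:141279134-141279383, both minus strand. Capitals mark the homeodomain core TAAT (or ATTA on the other strand) and the forkhead core TGTTTNC (or GNAAACA).
Gcg: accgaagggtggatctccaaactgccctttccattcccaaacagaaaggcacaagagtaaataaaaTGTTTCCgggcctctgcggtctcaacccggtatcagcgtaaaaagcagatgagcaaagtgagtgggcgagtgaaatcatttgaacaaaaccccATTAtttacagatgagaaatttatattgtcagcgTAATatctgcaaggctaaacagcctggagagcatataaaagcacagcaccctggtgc
Sct: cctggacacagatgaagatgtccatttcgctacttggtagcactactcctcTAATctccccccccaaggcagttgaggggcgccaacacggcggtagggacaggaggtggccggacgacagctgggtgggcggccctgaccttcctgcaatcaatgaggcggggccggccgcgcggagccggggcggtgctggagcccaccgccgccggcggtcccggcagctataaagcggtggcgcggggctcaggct
The Gcg window holds 2 homeodomain cores, 91 and 57 bases before the start, and 1 forkhead core at 184 bases. The Sct window holds 1 homeodomain core at 199 bases and no forkhead core. Each window also holds TATAAA, 24 and 28 bases before the start. Of 32851 RefSeq promoters of this length, 54.9% hold the homeodomain core and 17.8% the forkhead core on either strand. TATAAA was sought only on the strand of the gene, and 7.59% hold it there. These are matches of letters only.

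The deposited counts summed to between 40781919 and 103048766 per library, and the library with the most was EV_RIP replicate 2. Over the 12026 genes that reached 5 CPM in at least 1 library, Pearson's r of log2(CPM + 1) between pairs of the 7 libraries lay between 0.955 (EV replicate 1 and EV_RIP replicate 1) and 0.988 (EV replicates 2 and 3). Mitochondrially encoded genes took 3.20, 2.49 and 3.18% of counts in EV and 0.587, 2.34, 3.87 and 3.98% in EV_RIP, so EV_RIP replicate 1 stood far below the rest. These shares leave out reads counted on nuclear copies of mitochondrial genes. The copy Gm10925 alone took a mean of 1.04% of counts in EV and 0.989% in EV_RIP. Smndc1 itself, the target of the knockdowns, stood at 16.4 to 25.7 FPKM in the 7 controls. Levels of different genes are compared below in FPKM, length-scaled fragment counts as the authors deposited them, which were normalised separately in the 2 experiments. Differences between libraries are given in CPM, counts scaled to the library total with TMM factors over all 7 libraries. Where 4 or 3 values follow each other they are in replicate order.

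Of 55487 listed genes, 12619 reached 1 FPKM in all 7 libraries, and 10245 of these were protein-coding. At least 100 FPKM in all libraries was reached by 558 genes and at least 1000 by 14, while 21651 genes had no count in any library. The highest values belonged to mitochondrial transcripts and to their nuclear copies on chromosome 1, such as Gm10925 at 15380 ± 3355 FPKM (SD, n = 3) in EV and 15011 ± 4897 (n = 4) in EV_RIP. Between 96.9 and 100% of the 75-base words of Gm10925, Gm28661, Gm28437 and Gm29216 occur elsewhere in the transcriptome, so their reads cannot be placed with certainty. The same holds for mitochondrial genes to unequal degrees, since the shared part is 97.8% for mt-Nd3 and 98.7% for mt-Nd4l but 0% for mt-Nd1, mt-Cytb and mt-Nd6. Among nuclear protein-coding genes Gcg, the glucagon gene, ranked first in each of the 7 libraries. By group mean it was followed by the predicted gene Gm20721 (2058 ± 420.04 FPKM in EV and 2084 ± 269 in EV_RIP), of whose 75-base words 81.3% occur in another gene. Housekeeping genes were also near the top, among them Ptma, which encodes the chromatin-associated prothymosin alpha (1911 ± 353 FPKM in EV and 1212 ± 94.7 in EV_RIP), and the translation elongation factor gene Eef1a1 (1490 ± 125 and 1594 ± 311). The chaperone gene Hsp90ab1 stood at 1379 ± 88.5 and 1411 ± 126 FPKM, and Gapdh of glycolysis at 1339 ± 242 and 1655 ± 265. Chga, which encodes the granule protein chromogranin A, stood close behind with 904, 1006 and 1156 FPKM in EV and 1105, 1054, 1062 and 942 in EV_RIP.

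Gcg RNA stood at 3431, 6309 and 4302 FPKM in EV and at 7760, 10091, 9163 and 5811 FPKM in EV_RIP. The groups overlapped, since EV replicate 2 lay above EV_RIP replicate 4. In bulk RNA more cells of a kind and more RNA per cell cannot be told apart. Gcg took between 0.377 and 1.09% of all counts of a library. Sct encodes secretin, a hormone best known from duodenal S cells, and it was the only other islet or gut hormone of the 12 listed above 10 FPKM. Its values were 228, 540 and 209 FPKM in EV and 266, 164, 323 and 599 in EV_RIP, so in each group the highest value was more than 2-fold the lowest. Secretin RNA reached its highest levels in EV replicate 2 and EV_RIP replicate 4. Relative to glucagon RNA it amounted to between 1.62 (EV_RIP replicate 2) and 10.3 (EV_RIP replicate 4) FPKM per 100 FPKM of Gcg.

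The remaining hormones were at or under 2.56 FPKM in every library. Ghrl, which encodes ghrelin of epsilon cells, was at 1.25 to 1.48 FPKM in EV and 0.610 to 0.958 in EV_RIP, 2 ranges that did not overlap, yet the difference did not pass the test (log2 fold change -0.72 ± 0.27, SE, edgeR adjusted p = 0.169). Ins2, the main mouse insulin gene, had 5, 26 and 10 counts in EV and 99, 345, 62 and 25 in EV_RIP. Those counts amount to at most 0.386 FPKM in EV and 2.56 in EV_RIP, against 3431 or more for Gcg. Ins1 had 0 counts in each EV library and 2, 6, 1 and 0 in EV_RIP. Sst, the somatostatin gene of delta cells, had 1 count over all libraries, Ppy of PP cells 4, Pyy 6, and Gip 4. A count of 0 allows up to 3 counts of a library, which is 0.0291 to 0.0736 CPM here. Among 35 other peptide precursors only Dbi, which encodes the widely expressed acyl-CoA-binding protein, exceeded 100 FPKM in all libraries (110 to 169). Pomc, the precursor of corticotropin, was at 3.55 to 8.39 FPKM. Vip was listed with 1 count in all, and Tac1, Crh, Kiss1 and Nmu with none.

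The convertase RNA detected was mainly that of PC2. Pcsk2 was at 286, 451 and 397 FPKM in EV and 336, 296, 325 and 454 in EV_RIP, and Pcsk1 had 3 counts over all 7 libraries. Scg5, which encodes the PC2 chaperone 7B2, was at 113 to 235 FPKM. Cpe, the carboxypeptidase that trims the basic residues left by convertases, was at 118 to 177 FPKM, and Pam, the enzyme that amidates peptide ends, at 35.2 to 106. Of the other convertases Furin (10.5 to 13.97 FPKM) and Pcsk7 (8.22 to 9.84) were expressed and Pcsk5 had 5 counts. In all, 10 of 15 processing genes reached 1 FPKM in every library. Of 14 granins and granule membrane proteins 12 did so. After Chga came Scg2, or secretogranin II, at 436 to 602 FPKM, and Ptprn, the granule membrane protein IA-2, at 251 to 488. Slc30a8, the granule zinc transporter often listed for beta cells, was at 140 to 216 FPKM. Chgb, or chromogranin B, was lower, at 64.6 to 103 FPKM. Between EV_RIP and EV, 0 of the 26 tested genes of these 2 lists passed the edgeR test, and 4 had an unadjusted p under 0.05. DESeq2 called 1 (Syt7) and limma-voom 0. Over all 18308 genes that edgeR tested, 498 (2.72%) passed and 3644 had an unadjusted p under 0.05. DESeq2 called 1260 of 16719 genes and limma-voom 414 of 18308. Neither these lists nor the later ones were tested as sets against these shares.

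The exocytosis genes were present in depth, with 20 of 25 at 1 FPKM or more in all libraries. Cplx1, a complexin that clamps SNARE complexes, was at 137 to 227 FPKM, and Snap25, a core SNARE protein, at 93.3 to 170. Among synaptotagmins Syt13 (118 to 163 FPKM), Syt4 (61.6 to 130) and Syt7 (50.5 to 82.0), the calcium sensor of glucagon granules, were well above Syt1 (5.32 to 9.40) and Syt5 (6.54 to 16.5). Cadps2 had no count in any library.

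**Figure D1:**
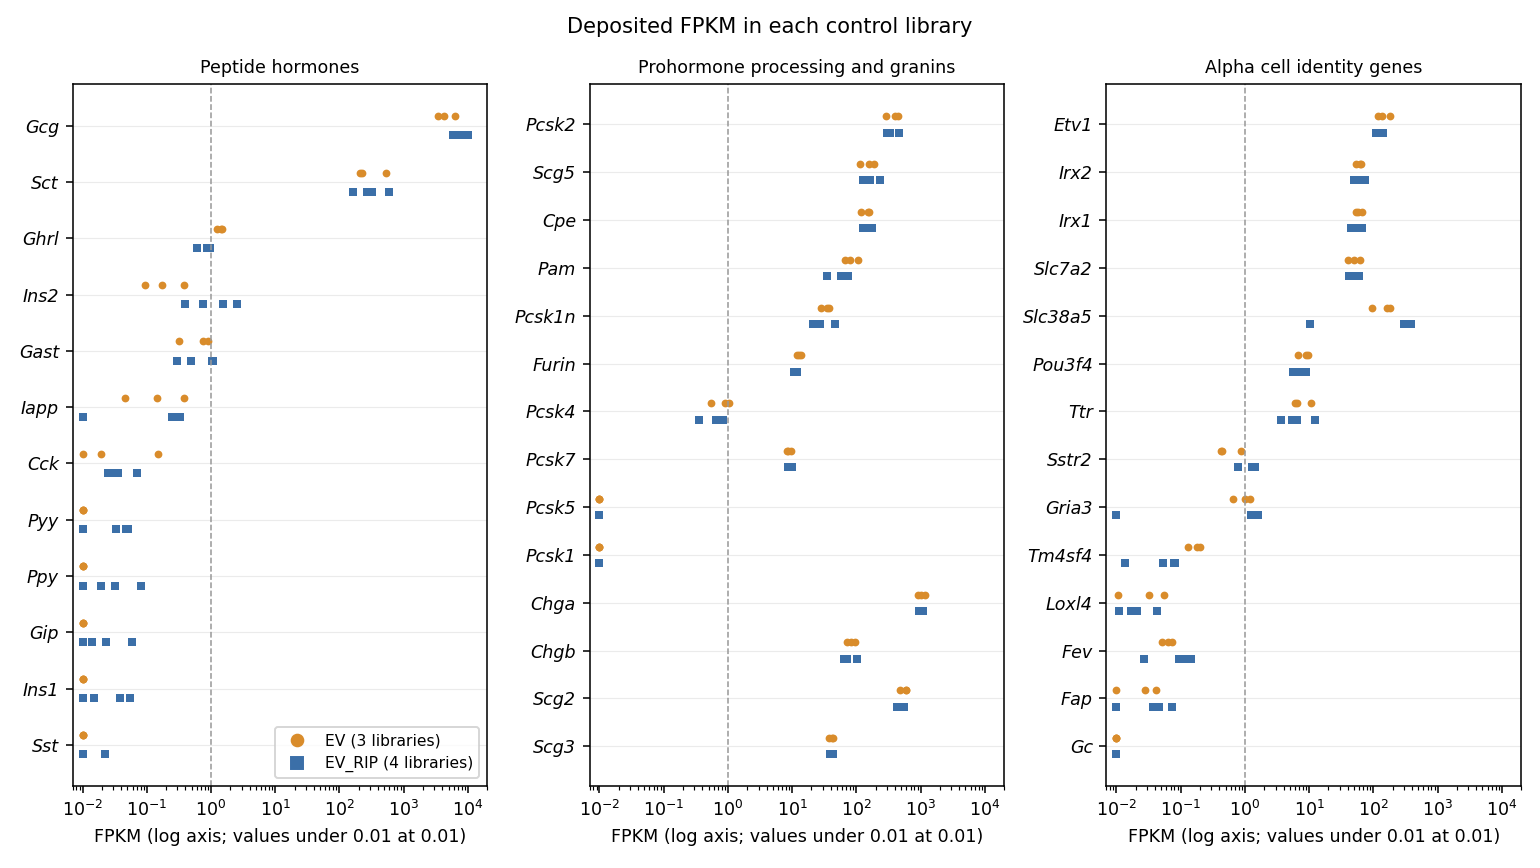
Deposited FPKM (log axis, values under 0.01 drawn at 0.01) of peptide hormones, of prohormone processing genes and granins, and of alpha cell identity genes, with 1 point per library for 3 EV libraries (circles) and 4 EV_RIP libraries (squares) and a dashed line at 1 FPKM. Gcg lies between 3431 and 10091 FPKM and Pcsk2 between 286 and 454, Pcsk1 lies at the left edge, and Slc38a5 is set apart by 1 EV_RIP library at 10.3 FPKM.

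The markers Gcg, Pcsk2, Irx1, Irx2 and Etv1 were all high, so the label of an alpha cell line was met by these genes. The ETS factor gene Etv1 was at 120, 180 and 138 FPKM in EV and 111, 116, 143 and 141 in EV_RIP. Irx2 (50.9 to 74.9 FPKM) and Irx1 (45.1 to 67.7), a pair of Iroquois homeodomain factors, were next and varied little. Pou3f4 (Brn4) was at 5.56 to 9.70 FPKM. Gc, the vitamin D-binding protein gene that is a common alpha cell marker, had 0 counts, and Tm4sf4, Fev, Fap and Loxl4 had 39 to 58 each. In all, 10 of 19 alpha cell identity genes reached 1 FPKM in every library, and 0 of the 12 tested passed the edgeR test between groups (2 at an unadjusted p under 0.05, 2 with DESeq2, Gcg and Sstr2, and 0 with limma-voom). Over all 18308 genes tested, 498 (2.72%) passed the edgeR test and 3644 had an unadjusted p under 0.05.

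Factors shared by islet cell types were broadly expressed. Isl1, a LIM homeodomain factor of all islet endocrine cells, was the highest at 84.9 to 139 FPKM. Neurod1, a basic helix-loop-helix factor, was at 24.2 to 46.8 FPKM, Nkx2-2 at 24.5 to 37.4, Myt1 at 19.4 to 30.1, Foxa2 at 15.5 to 20.7 and Pax6 at 13.4 to 19.7. Of the beta cell factors Nkx6-1 was at 16.5 to 22.8 FPKM, close to Pax6, while Pdx1 had no count and Mafa stayed under 1 FPKM in all libraries. Rfx6, Hnf4a, Neurog3 and Pax4, which act in the endocrine lineage or its progenitors, had 40, 16, 2 and 12 counts in all. Only 13 of 31 genes of this list reached 1 FPKM everywhere. Of 94 homeobox genes with standard names, 10 reached it and 45 had no count. Of 44 forkhead genes 19 reached 1 FPKM, led by Foxk2 (49.1 to 71.1 FPKM) and the proliferation factor gene Foxm1 (42.6 to 62.7).

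Of the 21 tested factors of this list 1 passed the test between groups, against 2.72% of all genes tested. Rfx3, a winged-helix regulator of ciliary genes that acts in islet development, was at 18.8, 15.6 and 15.3 CPM in EV and 8.86, 8.07, 10.9 and 10.9 in EV_RIP. All 4 EV_RIP libraries lay below all EV libraries, at a log2 difference of -0.78 ± 0.16 (SE, edgeR adjusted p = 0.0319). Among the 17 tested homeobox genes Pou2f1 (-0.80, edgeR adjusted p = 0.0255), and among the 25 tested forkhead genes Foxk1 (-0.57, 0.0342) and Foxn3 (-0.69, 0.0414), were lower in EV_RIP as well.

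The most abundant islet hormone receptor RNA was that of Sstr3, a somatostatin receptor (19.8 to 23.3 FPKM in EV and 16.2 to 18.3 in EV_RIP), followed by the dopamine receptor gene Drd2 (14.8 to 21.6 over all libraries). Sstr2, the somatostatin receptor usually named for alpha cells, was at 0.431 to 1.43 FPKM. Gabbr1, a GABA(B) receptor subunit, was at 6.70 to 14.5 FPKM, whereas its partner Gabbr2 had 9 counts in all. Oxtr for oxytocin (3.30 to 7.49 FPKM), Npy1r for neuropeptide Y (2.71 to 4.78) and Galr2 for galanin (1.88 to 4.73) were low but detected in every library. Ptger1 read 6.59 to 9.90 FPKM, but 71.0% of its exonic bases overlap a gene on the other strand and the strand setting of the counts is not given in the sources used here. Glp1r had 1 count in all, Sstr1 had none, Ffar1 had 47 and the glucagon receptor gene Gcgr 51. In all, 10 of 69 receptors of this list reached 1 FPKM in every library and 0 of 25 tested passed the edgeR test. At an unadjusted p under 0.05 there were 7, against 3644 of all 18308 genes tested. DESeq2 called 2, Sstr2 and Sstr3, and limma-voom 0.

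Kinase-linked, cytokine and nuclear receptors were more widely expressed, with 27 of 52 at 1 FPKM or more in all libraries. Irs2, an adaptor of the insulin receptor (40.8 to 65.3 FPKM), and Ppard, a fatty acid-sensing nuclear receptor (42.4 to 60.9), led the list. Il1r1 for interleukin-1 was at 28.6 to 68.5 FPKM and Kit at 20.5 to 39.1. Igf1r, the receptor of insulin-like growth factor 1, had 6 counts over all 7 libraries. Insr, the insulin receptor gene, was present and differed between groups, at 60.5, 52.7 and 52.8 CPM in EV against 31.2, 37.2, 40.8 and 41.5 in EV_RIP (log2 fold change -0.55 ± 0.13, SE, edgeR adjusted p = 0.0470). It was the only one of the 41 tested receptors of this list to pass, while 2.72% of all genes tested did.

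Among potassium channel genes, Kcnh6 was at 29.9 to 45.7 FPKM and Kcnh2 at 22.0 to 29.3, both of the ERG family. The KATP subunits, which couple metabolism to membrane voltage, were both present: Abcc8 at 10.6 to 23.4 FPKM and Kcnj11 at 7.09 to 21.4. Of the pore-forming calcium channel genes Cacna1c (3.42 to 7.06 FPKM) and Cacna1d (1.43 to 2.87), both L-type, and the T-type Cacna1i (3.58 to 10.2) were above 1 FPKM in all libraries, while Cacna1a of P/Q-type channels stayed at 0.105 to 0.236. Accessory subunits Cacna2d1 (18.7 to 38.9 FPKM) and Cacng7 (29.5 to 39.4) were higher. Gjd2, the islet gap junction connexin 36, was at 20.7 to 58.7 FPKM, and Hcn2, a pacemaker channel, at 18.0 to 25.9. Ligand-gated subunits included P2rx3 for ATP (7.02 to 12.3 FPKM), Glrb for glycine (16.03 to 30.04) and Chrnb2 for acetylcholine (9.97 to 13.5). Of 93 Kcn genes 15 reached 1 FPKM in every library, of 26 Cacn genes 9, and of 14 Scn genes 2. Of the 67 channel genes tested in these families 0 passed the edgeR test between groups. At an unadjusted p under 0.05 there were 15, against 3644 of all 18308 genes tested. DESeq2 called 6 (among them Cacna1c and Cacna2d1), against 1260 of all 16719 genes, and limma-voom 0.

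**Figure D2:**
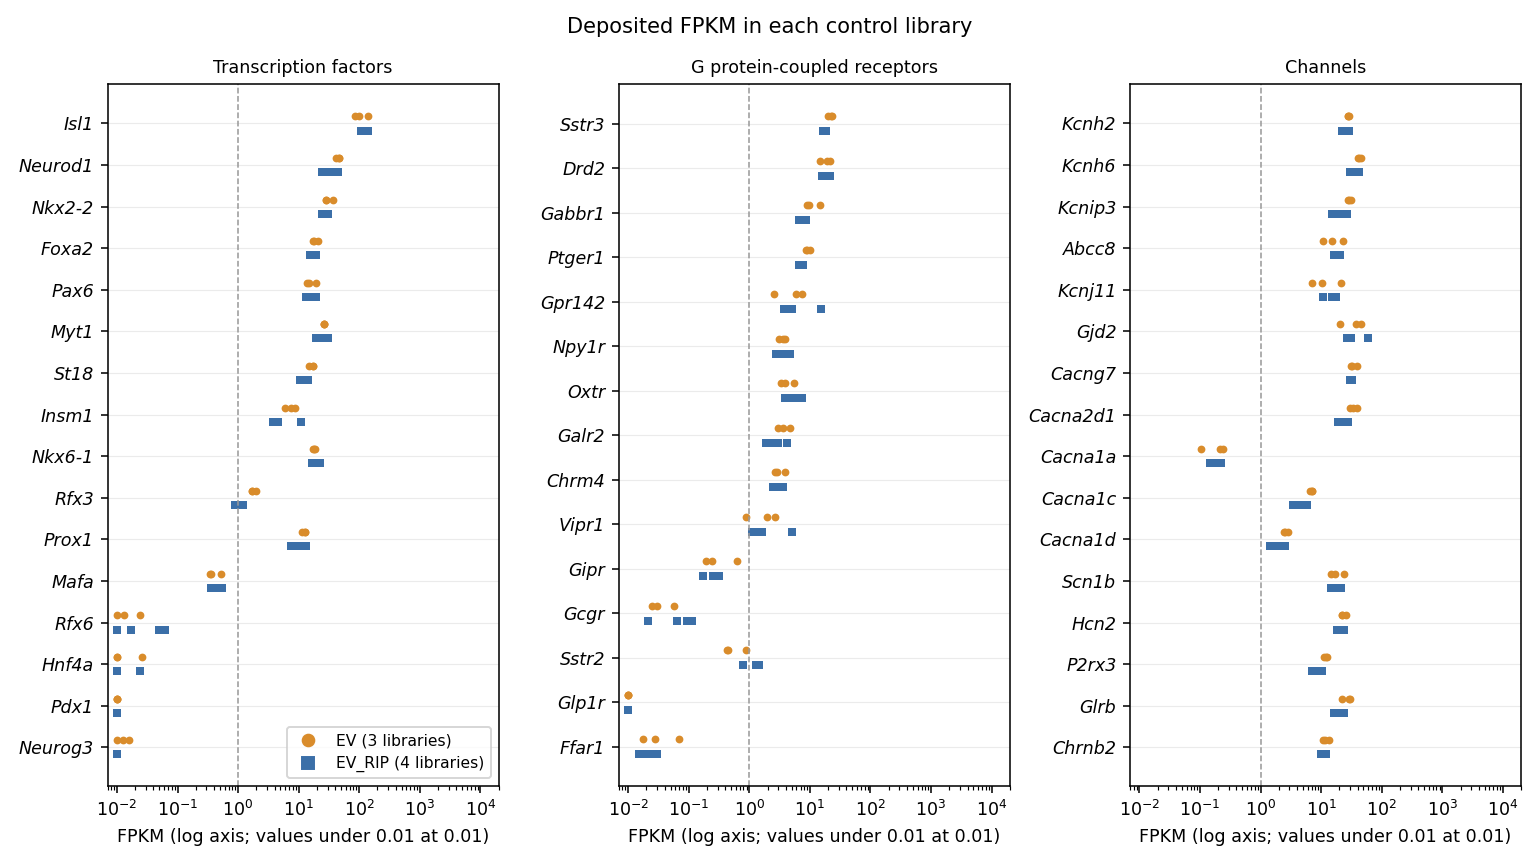
Deposited FPKM (log axis, values under 0.01 drawn at 0.01) of transcription factors, G protein-coupled receptors and channels, with 1 point per library for EV (circles) and EV_RIP (squares) and a dashed line at 1 FPKM. Isl1 (84.9 to 139 FPKM) leads its panel, receptors stay at or under 23.3 FPKM, and Pdx1 and Glp1r lie at the left edge.

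Among genes of glucose entry, Slc2a5, a fructose transporter, was at 62.2 to 81.9 FPKM and Slc2a1 (GLUT1) at 7.96 to 19.8, while Slc2a2 (GLUT2) had 23 counts in all. Hexokinase 1 RNA (Hk1) was at 52.3 to 74.3 FPKM. Glycolytic genes such as Gapdh, Tpi1 (652 to 1049 FPKM) and Aldoa (525 to 842) were among the highest of all genes, yet Ldha, the muscle-type lactate dehydrogenase gene, had 6 counts over all libraries and Ldhb 97. Only 2.69% of the 75-base words of Ldha occur in another gene.

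Several amino acid carriers were abundant. Slc7a5 was at 52.6 to 114 FPKM and its partner Slc3a2 at 63.3 to 91.9. Slc38a5, a glutamine carrier tied to alpha cell growth, reached 94.6 to 181 FPKM in EV and 301 to 391 in 3 EV_RIP libraries, but 10.3 in EV_RIP replicate 4. The related glutamine carriers Slc38a1 and Slc38a2 passed the test between groups. Slc38a2 was at 375, 344 and 259 CPM in EV and 186, 174, 206 and 245 in EV_RIP, without overlap (log2 fold change -0.69 ± 0.15, SE, edgeR adjusted p = 0.0436). Slc38a1 stood at 265, 227 and 226 against 158, 141, 169 and 182 CPM (-0.56 ± 0.12, edgeR adjusted p = 0.0332). The other 30 tested genes of the 36 on the list did not pass, and over all genes tested 2.72% passed.

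Of 61 secreted carriers and growth factors, 21 reached 1 FPKM in all libraries. Cst3, or cystatin C, an inhibitor of cysteine proteases, was the highest at 194 to 347 FPKM. Spink4, a protease inhibitor first found in gut, was at 57.8 to 150 FPKM, Timp2 at 53.2 to 94.5 and Rbp4, the retinol carrier, at 36.4 to 71.0. Ttr, the thyroid hormone carrier that is abundant in primary alpha cells, was at 3.63 to 12.5 FPKM. Wnt4 (29.7 to 46.4 FPKM) and Wnt10a (24.8 to 44.95) were the Wnt ligands detected at this level, out of 19. Igf2, Bmp4 and Gc had no count.

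The cells expressed the genes of an active cell cycle. All 24 G2 and M phase genes and 23 of 25 G1/S genes reached 1 FPKM in every library. Top2a, which untangles DNA before division, was at 269 to 405 FPKM, Mki67 at 59.2 to 98.5 and the replication clamp gene Pcna at 232 to 334. Of the D-type cyclins Ccnd1 and Ccnd2 stayed under 1 FPKM on average. All 22 ER chaperone genes reached 1 FPKM, led by P4hb (372 to 498), Calr (316 to 437) and Hsp90b1 (276 to 345). Of 20 interferon genes 5 stayed under 0.1 FPKM in all libraries, and 4 reached 1 FPKM in all libraries. Clock genes reached it in 17 of 19 cases, for example Nr1d1 at 18.3 to 42.3 FPKM, p53 target genes in 16 of 23, for example the cell cycle inhibitor gene Cdkn1a at 63.4 to 144, and heat shock genes in 11 of 14. Of the 83 tested genes of the cell cycle, ER chaperone and interferon lists 0 passed the edgeR test between groups. An unadjusted p under 0.05 was seen for 16, against 3644 of all 18308 genes tested. DESeq2 called 2 (Dnajb9 and Prim1) and limma-voom 0.

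Markers of other cell types differed by list. Among leukocyte markers Ptprc had 2 counts in all, although Cd68 (4.88 to 9.20 FPKM) and Csf1r (1.89 to 2.60) were detected. None of 7 endothelial and none of 8 fibroblast markers reached 1 FPKM in all libraries. Of the acinar markers Cela1, an elastase, was at 4.33 to 9.32 FPKM while Ptf1a had no count, and of the duct markers Car2 (30.6 to 58.1) stood out while Krt19 had 12 counts in all. The neuron and glia list summed to 66.6 to 118 FPKM, and 3 of its 12 genes reached 1 FPKM in all libraries, among them Tubb3, a neuronal beta tubulin (42.1 to 83.0), and Nefm, a neurofilament subunit (12.4 to 44.8). Gfap and Sox10, which mark glia, had 9 and 5 counts in all, and Aqp4 had none. Of 12 hepatocyte and gut enterocyte markers 2 reached 1 FPKM in all libraries, Ttr and Serpina1a (2.21 to 7.13), while Fabp1 and Cdx2 had no count. Ddc, which decarboxylates aromatic amino acids and is shared by enteroendocrine cells, was at 165 to 372 FPKM, and Tph1 had 7 counts. Of the 34 tested markers of other cell types 0 passed the edgeR test between groups, 2 had an unadjusted p under 0.05, and DESeq2 and limma-voom called 0. Over all 18308 genes tested, 498 (2.72%) passed the edgeR test and 3644 had an unadjusted p under 0.05. Whether such single markers come from the line or from other cells was not tested.

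The 2 experiments were compared with edgeR's quasi-likelihood test over 18308 genes with sufficient counts. Between EV_RIP and EV 498 genes (2.72%) passed an adjusted p of 0.05, of which 319 (1.74%) were higher and 179 (0.978%) lower in EV_RIP. Higher genes were 64.1% of the called genes, against 53.1% with DESeq2, 53.8% without a filter on low counts and 51.1% without EV_RIP replicate 4. The share was 63.5% with limma-voom and 68.3% with the replicate number in the model. Leaving out EV replicate 1, 2 or 3 gave 81.0, 73.7 and 72.2%. Leaving out EV_RIP replicate 1, 2 or 3 gave 74.1, 73.7 and 69.4%. The libraries of the 2 groups did not overlap for 20.5% of the tested genes. Gene class separated the directions. Processed pseudogenes, the intronless copies of spliced transcripts, made up 74.6% of the higher genes (238 of 319) and 23.5% of the lower ones, against 8.83% of all genes tested. Only 68 higher and 115 lower genes were protein-coding.

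Pseudogenes of ribosomal protein genes moved in both directions. Rpl27-ps3 was at 19.5, 18.4 and 18.7 CPM in EV and 77.8, 63.0, 56.9 and 53.8 in EV_RIP (log2 fold change 1.74 ± 0.15, SE, edgeR adjusted p = 0.000267). Rpl38-ps2 moved the opposite way, from 97.2, 78.8 and 74.1 CPM to 19.7, 9.94, 9.25 and 10.9 (-2.75 ± 0.25, edgeR adjusted p = 0.000621), while its parent Rpl38 was higher in EV_RIP, at 431, 380, 370 and 333 CPM against 241, 203 and 220 (0.78 ± 0.12, edgeR adjusted p = 0.00760). All 75-base words of both pseudogenes occur in another gene, so their reads cannot be placed with certainty. Among pseudogenes that were higher, a median of 65.7% of such words was shared with another gene, against 38.9% for all pseudogenes tested. The largest rise was that of Bc1, a short neuronal RNA transcribed by RNA polymerase III, at 0.953, 2.27 and 3.20 CPM in EV and 34.3, 25.9, 63.0 and 20.6 in EV_RIP (4.06 ± 0.55, edgeR adjusted p = 0.0111). Rn7sk, another such RNA, which holds the elongation factor P-TEFb inactive, was also higher (1.58 ± 0.31, edgeR adjusted p = 0.0281). Further genes named by size in this direction were Hmgb1-ps4, Atp5l2-ps, Rpl19-ps1, Rps3a3, Atp5pb-ps and Rpl9-ps6, with log2 fold changes from 1.63 to 2.29. Other genes with large falls were Rpl17-ps10, Rpl17-ps9, Rpl17-ps5, Psme2b, Kantr, Atn1, the zinc transporter gene Slc39a7 and Tmem178b, from -1.84 to -0.97. Most exonic bases of Atn1 (84.2%) and Slc39a7 (80.7%) overlap another gene on the same strand.

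Protein-coding genes differed by exonic length, taken per gene over all its annotated exons merged. The median exonic length was 1917 bases for higher, 8279 for lower and 4453 for all protein-coding genes tested. Of 343 protein-coding genes under 1 kb, 18 were higher and 2 lower in EV_RIP, and of 2436 genes of 8 kb or more, 1 was higher and 60 lower. The median log2 fold change fell from 0.22 in the shortest class to -0.19 in the longest. The slope was not shared evenly by the EV_RIP libraries. In EV_RIP replicate 1 the median deviation from the mean of all 7 libraries went from 0.22 in the shortest to -0.17 in the longest class, and in EV_RIP replicate 4 from -0.03 to 0.02. Ribosomal protein genes, which are short, made up 2.47 ± 0.08% of counts in EV (SD, n = 3) and 3.10 ± 0.444% in EV_RIP (n = 4), a difference that reached the smallest p the exact permutation test allows (two-sided p = 0.0571, adjusted 0.229 over 4 shares). All 77 tested ribosomal protein genes had a positive log2 fold change (median 0.32, against 0.01 over all genes), and 5 of them passed: Rpl12, Rpl21, Rpl32, Rpl38 and Rpl41. Of the 90 respiratory chain genes tested 88 were positive (median 0.34) and 1, Cox7a2, passed. Over all 18308 genes tested 9356 were positive and 2.72% passed. The part of exonic length in these differences was not tested.

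**Figure D3:**
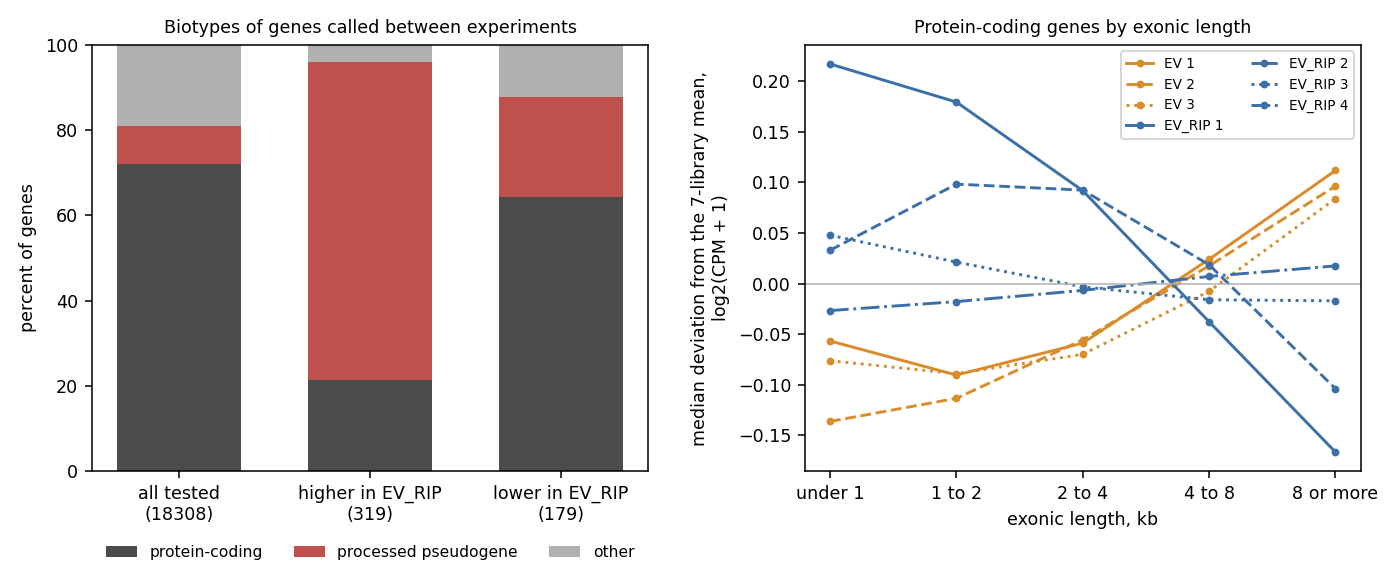
Left, percent of genes by class (protein-coding, processed pseudogene, other) among the 18308 tested, the 319 higher and the 179 lower in EV_RIP. Right, median deviation of log2(CPM + 1) from the 7-library mean for protein-coding genes in 5 classes of exonic length, 1 line per library: EV_RIP replicate 1 falls from 0.22 to -0.17 and the EV libraries rise to between 0.08 and 0.11.

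The protein-coding genes that were lower in EV_RIP included a pair of AP-1 genes. Fosb, an AP-1 subunit induced by stimulation, was at 8.36, 5.96 and 17.7 CPM in EV and 2.4997, 3.42, 3.04 and 4.65 in EV_RIP (log2 fold change -1.65 ± 0.35, SE, edgeR adjusted p = 0.0402). Fosl2 of the same family was at 242, 291 and 293 against 134, 103, 171 and 177 CPM (-0.91 ± 0.18, edgeR adjusted p = 0.0231). These were the only 2 of 25 tested immediate-early genes to pass, and Egr1 was at 2.21 to 3.03 CPM in EV and 1.77 to 2.703 in EV_RIP. Over all 18308 genes tested 2.72% passed, and 0.978% were lower in EV_RIP. Ppargc1a, the coactivator of mitochondrial and gluconeogenic genes, stood at 314, 333 and 378 CPM in EV and 196, 195, 233 and 204 in EV_RIP (-0.72 ± 0.11, edgeR adjusted p = 0.00769). The clock gene Rora (-0.87), the zinc exporter gene Slc30a1 (-0.53), the lipid synthase gene Fasn (-0.51), the kinase gene Gsk3b (-0.62), the G protein gene Gnaq (-0.70) and Klf13 (-0.77) were lower as well. Abhd2, a lipase gene, was at 323, 315 and 317 CPM in EV and 171, 177, 194 and 214 in EV_RIP.

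The protein-coding genes that were higher in EV_RIP were fewer. Rgs4, a brake on G protein signalling listed here as a delta cell marker, was at 163, 153 and 201 CPM in EV and 294, 303, 275 and 253 in EV_RIP (0.71 ± 0.12, SE, edgeR adjusted p = 0.0142). The mitotic genes Cdkn3 (0.77) and Pttg1 (0.67), the proteasome subunit gene Psma7 (0.68), the antioxidant enzyme gene Sod1 (0.47) and the chaperonin cofactor gene Hspe1 (0.53) also passed. Olfr77, the one olfactory receptor gene of 9 tested to pass, was at 11.3 to 13.7 CPM in EV and 19.4 to 33.1 in EV_RIP. Over all 18308 genes tested 2.72% passed, and 1.74% were higher in EV_RIP. The predicted genes Gm25732 and Gm13094 reached 1 FPKM in every EV_RIP library and stayed under 0.1 in every EV library, and 0 genes did the reverse.

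The glucagon gene did not pass, at 3754, 6707 and 4575 CPM in EV and 8291, 10832, 9776 and 6102 in EV_RIP (0.80 ± 0.23, SE, edgeR adjusted p = 0.0986). Without EV_RIP replicate 4 it passed (0.93, edgeR adjusted p = 0.0233). Ins2 behaved alike, at a log2 difference of 2.57 ± 0.70 (edgeR adjusted p = 0.0858) on 5 to 345 counts per library, and 2.85 (edgeR adjusted p = 0.0135) without that library. DESeq2 called both (adjusted p = 0.0138 and 0.000655). The call of either gene therefore turned on 1 library and on the tool.

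The count of called genes changed with each library left out, and the part of the smaller number of libraries was not tested. It was 115, 137 or 167 when EV replicate 3, 1 or 2 was left out, and 1348 when EV_RIP replicate 4 was. Leaving out EV_RIP replicate 1, 2 or 3 gave 247, 274 and 235 genes. Of the 49 called genes named here, all stayed called without EV_RIP replicate 4, and 34 lost the call when EV replicate 3 was left out, 32 with EV replicate 1 and 33 with EV replicate 2 left out.

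Within groups the libraries were close. The median SD of log2(CPM + 1) was 0.137 over 11382 genes in EV and 0.182 over 11418 genes in EV_RIP, and an SD over 1 was seen for 12 and 65 genes. The most variable gene of EV was Chac1, a glutathione-degrading enzyme gene switched on by the transcription factor ATF4, at 4.52, 41.6 and 32.7 CPM. In EV_RIP it stood at 34.0, 4.48, 26.7 and 37.9 CPM, so EV replicate 1 and EV_RIP replicate 2 were the low libraries. The same 2 libraries were the lowest of their groups for Atf4 (235 and 290 CPM against 441 to 579 in the other 5), for Mthfd2 of mitochondrial folate metabolism (133 and 117 against 207 to 277) and for Psat1 of serine synthesis (348 and 322 against 411 to 593). Over the 19 genes of the integrated stress response the median deviation was -0.43 in EV replicate 1 and -0.52 in EV_RIP replicate 2. The other 5 libraries had medians of 0.03 to 0.37. Apoe, the lipid carrier gene, went the other way, at 22.4 and 22.5 CPM in those 2 libraries and 4.61 to 9.93 in the rest. Col11a2 did the same, at 48.6 and 30.9 against 7.74 to 18.2 CPM.

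Cholesterol synthesis genes, which are driven by SREBP2, followed another library order. Insig1, a feedback sensor of the pathway, was at 242, 448 and 219 CPM in EV and 242, 153, 202 and 246 in EV_RIP. Hmgcs1 stood at 134, 262 and 152 CPM in EV and 139, 74.2, 142 and 174 in EV_RIP. EV replicate 2 was thus the highest library and EV_RIP replicate 2 the lowest for both, and the median deviation over the list was 0.55 and -0.42 in these. EV replicate 2 was also set apart by Lbp, the endotoxin-binding protein gene (77.6 CPM against 19.3 and 18.5), and Slc16a3, a lactate exporter gene (76.9 against 20.9 and 18.5). Between groups, 0 of 19 stress response genes passed the edgeR test (1 at an unadjusted p under 0.05, 1 with DESeq2, Ddit3, and 0 with limma-voom). Of 22 tested cholesterol genes 0 passed it (6 at an unadjusted p under 0.05, 2 with DESeq2, Hsd17b7 and Stard4, and 0 with limma-voom). Over all 18308 genes tested, 3644 had an unadjusted p under 0.05.

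**Figure D4:**
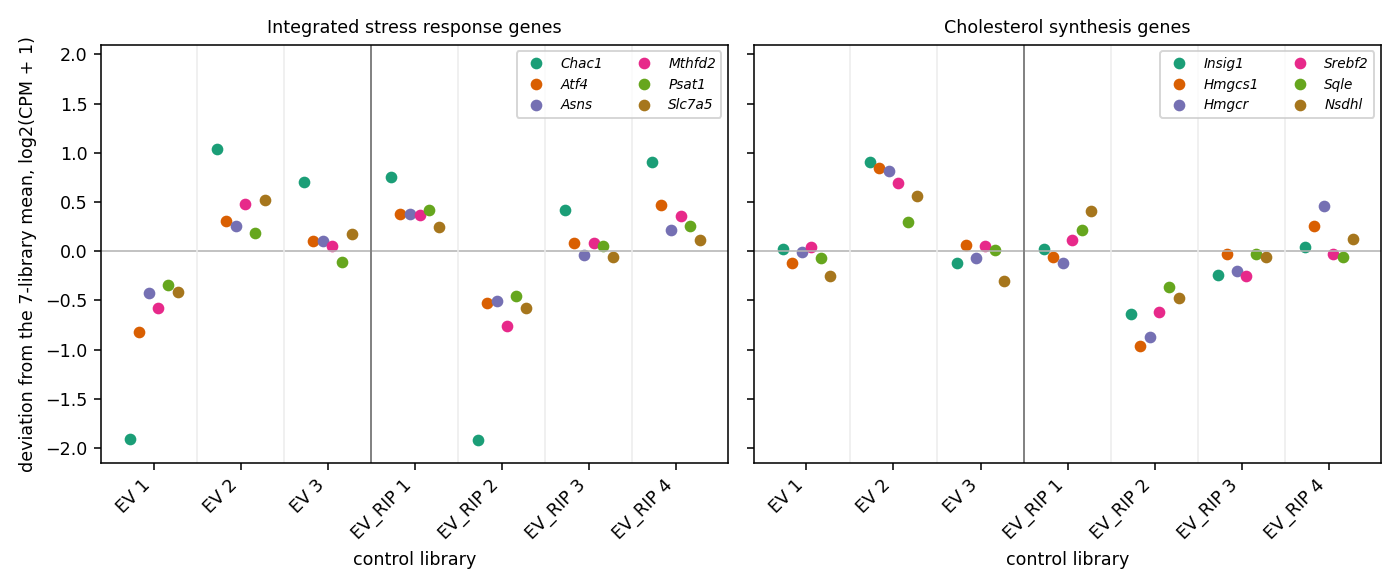
Deviation of log2(CPM + 1) from the 7-library mean for 6 integrated stress response genes and 6 cholesterol synthesis genes, 1 point per gene and library. Chac1 and its companions are low in EV replicate 1 and EV_RIP replicate 2, and Insig1 and Hmgcs1 are high in EV replicate 2 and low in EV_RIP replicate 2.

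EV_RIP replicate 4 stood apart from its group. Of 11859 genes that reached 5 CPM in the group, 42 were at least 4-fold lower there on the log2(CPM + 1) scale than in each of the other 3 EV_RIP libraries and 0 were at least 4-fold higher. The same count was 6 for EV_RIP replicate 1, of which 5 were mitochondrially encoded, 1 for replicate 2 and 0 for replicate 3. Slc38a5 led the 42 genes, at 781, 857 and 656 CPM in replicates 1 to 3 and 22.1 in replicate 4, with 205 to 393 in EV. Lct, the lactase gene, was at 29.98, 22.1 and 28.9 CPM and 0.158. Trf, which encodes the iron carrier transferrin and shares 63% of its exonic bases with another gene on the same strand, was at 116, 152 and 106 CPM and 6.79, and Pdpn, or podoplanin, at 18.4, 14.2 and 16.04 CPM and 0.138. Secreted guidance and growth factors were among them too, with Sema3a at 11.5, 18.3 and 10.7 CPM and 0.0593, and Tgfb3 at 21.1, 24.03 and 22.9 CPM and 0.712. EV libraries stood between these extremes for many of the genes, and EV replicate 2 was the lowest EV library for 31 of the 42.

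A smaller set was raised in that library. On the same scale 29 genes were at least 2-fold higher than in each of the other EV_RIP libraries, and 125 at least 2-fold lower. The receptor genes Gpr142 (16.1 CPM against 4.13 to 5.63) and Vipr1 (23.6 against 5.31 to 7.70) and the endocrine zinc finger gene Insm1 (32.5 against 11.7 to 13.9) were in the higher set. Dusp6, Spry4 and Etv5, known targets of ERK signalling, were in it as well, at 8.60, 8.51 and 26.6 CPM against at most 3.62, 2.697 and 11.5. The same 3 genes were highest among EV libraries in EV replicate 2, at 10.3, 7.61 and 27.1 CPM. For 18 of the 29 genes EV replicate 2 was the highest EV library. EV replicate 2 and EV_RIP replicate 4 also held the highest Sct of their groups. Some marker lists of other cell types had sums in EV_RIP replicate 4 outside the range of the other libraries. The acinar list summed to 48.2 FPKM there against 23.2 to 32.0 in the other 6 libraries, and the duct list to 64.1 against 38.0 to 62.5. The median deviations of these 2 lists there went the other way, at -0.21 and -0.16 over 4 and 6 tested genes. The fibroblast list summed to 0.636 against 1.15 to 2.23 FPKM, with a median deviation of -0.71, and the leukocyte list to 6.84 against 7.44 to 12.1, with a median deviation of -0.39. The enteroendocrine list, which holds Sct and Ddc, summed to 972 FPKM there against 329 to 871 in the other libraries. Its median deviation was 0.39 over 3 tested genes. The endothelial (0.349 FPKM), neuron and glia (68.7) and hepatocyte and enterocyte (18.3) sums lay within the range of the other libraries. The part of other cells in the differences of this library was not tested.

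**Figure D5:**
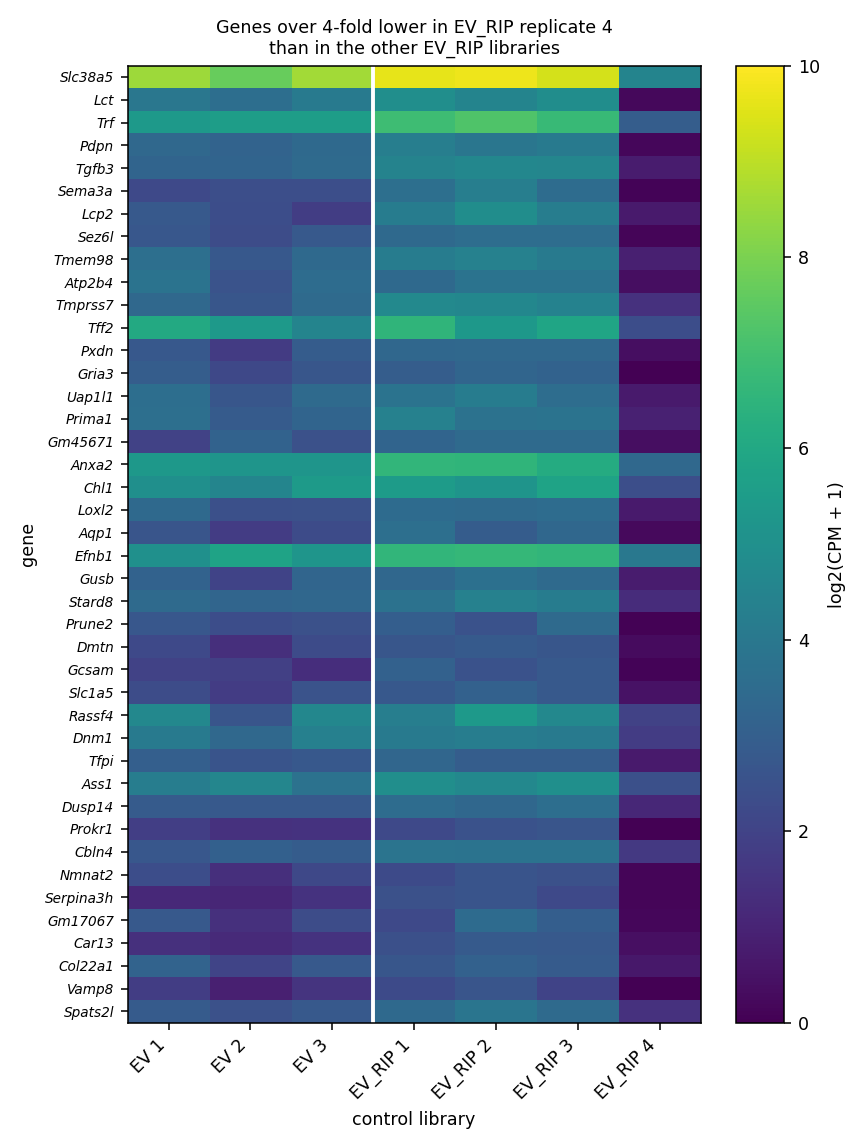
log2(CPM + 1) of the 42 genes at least 4-fold lower in EV_RIP replicate 4 than in each other EV_RIP library, in all 7 control libraries (color scale from 0 to 10, a white line between the groups). The last column is dark throughout, and Slc38a5 falls from 656 or more CPM to 22.1.

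EV_RIP replicate 1 was set apart by mitochondrial RNA instead. mt-Nd6, a subunit gene of complex I, stood at 60.6, 159, 621 and 754 CPM in EV_RIP and at 599, 570 and 724 in EV. The list of mitochondrially encoded genes had a median deviation of -1.93 in that library, while ribosomal protein and respiratory chain genes of the nucleus were both at 0.38 above the mean. The part of RNA quality or of library preparation in this difference was not tested.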

How the data were processed

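RNA of alphaTC1 cells was sequenced, and the authors deposited 1 table of raw read counts and FPKM values per experiment. The counts and the FPKM were used as the authors deposited them, with genes named by the GENCODE vM21 annotation of GRCm38, and FPKM were scaled separately in each table. The submitters' processing notes name STAR 2.7.5a, Picard 2.19.2 and DESeq2 1.30.0, while the program that counted reads, and whether it used strand, is not given in the sources used here. Only the 7 empty-vector columns were read. The counts of both tables were joined by gene and tested with edgeR 4.0.16 (R 4.3.3) by quasi-likelihood with robust dispersion, filterByExpr, TMM scaling and Benjamini-Hochberg adjustment at 0.05. DESeq2 1.42.0 and limma 3.58.1 (voom) were alternatives, with other filters and scalings and each library left out. Shares of counts were compared by exact permutation over 35 splits. On simulated counts for the 18308 genes, the fit recovered 12 of 67 genes changed 1.5-fold, 44 of 67 changed 2-fold and 54 of 66 changed 4-fold. It called 5 of 18108 unchanged genes. The simulated libraries were independent, with the same spread per gene in both groups. In the data the common biological coefficient of variation, edgeR's measure of that spread, was 0.168 in EV and 0.233 in EV_RIP. The simulation therefore does not give the rate of false calls in these data. Replicate numbers were shared by the 2 groups but did not pair the libraries. Sharing of 75-base words and overlap of exons were computed from the GENCODE transcripts. Limits for a count of 0 cover counting error only.

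Genes were named by rule: members of the hormone, alpha cell and processing lists, the 15 highest genes per experiment, up to 6 members per list by level and 4 by p, the 10 largest changes in each direction among genes of at least 5 CPM without overlap, and the 10 most variable genes per group. The members and the lists were chosen with earlier results of these data known. Other genes in the text, and those that set EV_RIP replicate 4 apart, were chosen after their values were seen. Some genes of the lists are counted in the totals but are not reported here by name.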

Additional observations from a re-analysis of the deposited data

Results flagged for a closer look

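Of 236 values checked in the 4 EV_RIP libraries, 18 had 1 library far from the other 3 by Dixon's criterion. Genes were checked on log2(CPM + 1), and chance gives about 1 in 20 for values not chosen by their spread. Genes named for their spread or for EV_RIP replicate 4 were among those checked, so these counts cannot be set against chance. Slc38a5, Lct, Pdpn, Tgfb3, Trf and Insm1 belong to the gene sets that replicate 4 set apart. The 18 values fell on EV_RIP replicate 4 in 8 cases, on replicate 1 in 6, on replicate 2 in 3 and on replicate 3 in 1. Low in replicate 4 were Slc38a5 (22.1 CPM against 656 to 857), Lct (0.158 against 22.1 to 29.98), Pdpn (0.138 against 14.2 to 18.4), Tgfb3 (0.712 against 21.1 to 24.03) and Trf (6.79 against 106 to 152). High in replicate 4 were the dopamine receptor gene Drd2 (52.7 CPM against 39.9 to 40.8), Insm1 (32.5 against 11.7 to 13.9) and Isl1 (336 against 262 to 268). In replicate 1 Hspe1 (339 CPM against 285 to 288), Slc16a3 (27.5 against 20.6 to 21.5) and Wnt10a (109 against 73.2 to 76.5) were high, and Slc30a1 (18.5 against 21.7 to 22.2) and Sstr2 (1.63 against 2.73 to 2.95) were low. Nkx6-1 was high in replicate 2, at 70.7 CPM against 50.9 to 52.6. The glial gene Sox10 had 0.0289 CPM, from 3 reads, in replicate 2 and 0 in the others. The other 3 rest on a single read in 1 library with 0 in the other 3: Ptprc in replicate 1 (0.0203 CPM), Sst in replicate 3 (0.0157) and Vip in replicate 2 (0.00962).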

How the results depend on the processing

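The count of genes called between EV_RIP and EV, 498 in all, was 1260 with DESeq2 (669 higher, 591 lower), 991 without a filter on low counts (533 and 458) and 414 with limma-voom (263 and 151). Leaving out 1 library at a time gave 115 to 1348 called genes, 83 to 689 higher and 26 to 659 lower. Leaving out EV_RIP replicate 4 and EV replicate 2 together, chosen after the data were seen, gave 544 (317 and 227). DESeq2 called 477 of the 498 genes. A fit without a library also has fewer libraries, and the cause of these differences was not tested. Same-numbered libraries had correlations of -0.200, -0.361 and 0.254 of their deviations from the group means, so the numbers were not taken to pair them, and not every library correlated best with its own number. With the replicate block 338 genes were called, 231 higher and 107 lower. The difference in mitochondrial share (EV_RIP minus EV), -0.262 percentage points, ranged from -0.691 to 0.441 and the histone share difference from -1.16e-05 to 8.49e-05 percentage points when a library was left out, and both turned sign without EV_RIP replicate 1. Of the 49 called genes named, 9 lost the call with limma-voom, 18 with the replicate block, 0 with DESeq2 or upper-quartile scaling, 26, 22 and 24 without EV_RIP replicate 1, 2 or 3, 0 without EV_RIP replicate 4, and 32, 33 and 34 without EV replicate 1, 2 or 3, and none changed direction under any alternative. With 3 against 4 libraries, genes that did not pass may still differ.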
